A study of Homo sapiens with 16 samples.

Results

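The proteasome genes were followed across a study of P493-6 cells at high and at medium MYC, with and without an inhibitor of N-myristoyltransferases. Members were taken by name alone, as protein-coding genes whose symbol is PSM followed by a letter from A to G and a number, together with POMP. This gave 51 of the 58051 Ensembl identifiers in the deposited table. Of these, PSMC3IP and PSME3IP1 share only the letters of the name and code for binding partners, so 49 proteasome genes were left. Expression was high enough to test in 47 of them, by a mean of at least 10 normalized counts over the 16 libraries. The other two are expressed mainly outside B cells. PSMA8, a testis variant of an alpha subunit, had 8 reads over all 16 libraries, and PSMB11, the beta subunit of the thymus, had 1.

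The proteasome is the protease that degrades ubiquitin-tagged proteins. Its 20S core is a barrel of alpha rings that gate the entrance around beta rings that hold the active sites. The 19S cap binds ubiquitin chains, removes them, and unfolds substrates with a ring of ATPases. Immune cells can build the core with the inducible catalytic subunits PSMB9, PSMB10 and PSMB8 in place of PSMB6, PSMB7 and PSMB5, which gives the immunoproteasome, and can cap it with the PSME1 and PSME2 ring (PA28). Both shift the cut peptides toward ones that fit MHC class I molecules. PSMG1 to PSMG4 and POMP are chaperones that assemble the core and are not part of the finished particle.

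P493-6 is an established human B cell line with a MYC transgene that doxycycline switches off and an EBNA2 protein that works only with estrogen. Cultures at high MYC grew in ordinary medium. Those at medium MYC were given 0.1 µg/mL doxycycline and 1 µM β-estradiol 24 h ahead, so MYC level, doxycycline and estradiol cannot be told apart. All groups then received either 100 nM IMP1088, which blocks NMT1 and NMT2, or DMSO as control for 24 h. Every combination of MYC level and treatment was sequenced in 4 libraries, which makes 4 groups, all from this single line. The labels do not say that they came from separate cultures, so p-values measure the spread between these libraries, which may be technical.

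Libraries held 8755296 to 13858534 reads. MYC itself was at 29693 to 34376 normalized counts in the high MYC controls and at 904 to 1022 in the medium MYC controls. With the inhibitor it was at 46843 to 48049 and at 1328 to 1444. The 6 B cell markers summed to 19245 to 39481 normalized counts. The 4 markers each of T cells (40.8 to 93.6), myeloid cells (108 to 291) and epithelial or stromal cells (64.8 to 238) summed to far less, and CD8A and KRT19 were at 0 in 3 of the 4 groups. Of these sums, that of the B cell markers moved with both factors. It went from 23822 to 24000 in high MYC controls to 38767 to 39481 in medium MYC controls, and was at 19245 to 20206 and 34126 to 35361 with the inhibitor. Of the 6, 4 were higher and 2 lower at medium MYC in controls, and 5 and 4 were lower with the inhibitor at high and medium MYC. The myeloid sum lay between 118 and 136 in high MYC controls and between 263 and 291 in medium MYC controls, with ITGAM higher by 1.49 on the log2 scale. The epithelial or stromal sum lay between 64.8 and 77.5 and between 177 and 187. Its 2 tested markers went opposite ways, COL1A1 by 4.39 and EPCAM by -2.23 on the log2 scale. EPCAM was at 54.2 to 70.8 normalized counts in high MYC controls and at 9.39 to 21.3 in medium MYC controls. The T cell sum was lower with the inhibitor, at 44.1 to 56.6 beside 62.9 to 71.5 at high MYC and at 40.8 to 52.2 beside 66.8 to 93.6 at medium MYC. The part of these markers in the changes below was not tested. In bulk RNA, fewer cells of a type and less RNA per cell cannot be told apart.

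Between high and medium MYC, most genes of the core particle and its cap stayed close to their level in normalized counts. These counts are scaled between libraries, so a change in RNA per cell shared by most genes would not be seen. In controls, changes beyond 0.5 on the log2 scale were in the inducible subunit PSMB9, in activators and in assembly chaperones. In control cultures, 34 of the 47 proteasome genes differed between medium and high MYC (limma, adjusted p under 0.05), 19 higher and 15 lower at medium MYC. This share is near the background, because 76.2% of the 13765 tested genes, and 81.9% of those with a mean of at least 100, were called in this comparison. The median change was 0.04, beside 0.02 for all tested genes. The median size of the change, sign ignored, was 0.20 on the log2 scale for the proteasome genes, beside 0.50 for all tested genes and 0.44 for tested genes with a mean of at least 100. Changes of at most 0.5 were seen in 39 of 47 members (83.0%), beside 50.2% of all tested genes. Called changes of at least 2-fold were seen in 4 members, beside a background of 24.0%: PSMB9 and PSME2 were higher, and the chaperones PSMG1 and PSMG4 were lower. Groups did not overlap for 31 of the 47, beside a background of 69.2%.

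**Figure D1:**
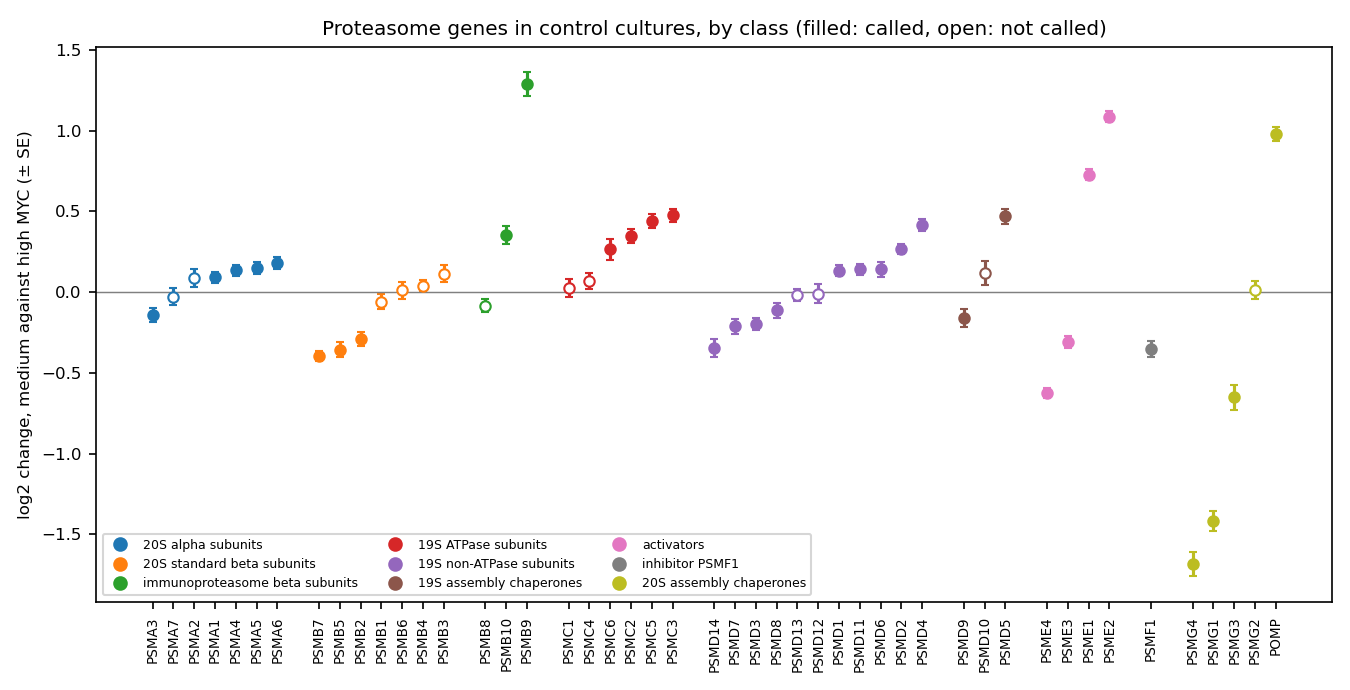
Log2 change of each of the 47 tested proteasome genes at medium against high MYC in control cultures (y axis, points with SE), ordered within classes (x axis); filled points were called. The alpha, beta and 19S subunits lie between -0.39 and 0.48, while PSMB9, PSME2, POMP, PSMG1 and PSMG4 lie farther from 0.

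The promoters of the 5 genes that moved most are shown because they moved in both directions and belong to 3 different classes. They are RefSeq sequences on GRCh38.p14, each from 250 bases before the start to 50 after it, and capitals mark matches to the motifs described next. The windows are chr6:32853942-32854241 (plus strand) for PSMB9, chr14:24146561-24146860 (minus strand) for PSME2, chr13:28658880-28659179 (plus strand) for POMP, chr21:39183402-39183701 (minus strand) for PSMG1 and chr6:3258697-3258996 (plus strand) for PSMG4. Those of PSMB9, PSME2, PSMG1 and PSMG4 lie inside the GENCODE spans of these genes given below, which begin upstream of the RefSeq starts.
PSMB9: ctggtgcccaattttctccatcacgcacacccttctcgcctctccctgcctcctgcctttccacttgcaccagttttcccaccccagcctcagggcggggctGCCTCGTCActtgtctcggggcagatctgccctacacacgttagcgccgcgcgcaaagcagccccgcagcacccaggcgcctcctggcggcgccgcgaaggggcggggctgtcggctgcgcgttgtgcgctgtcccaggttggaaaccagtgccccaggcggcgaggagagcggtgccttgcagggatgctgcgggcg
PSME2: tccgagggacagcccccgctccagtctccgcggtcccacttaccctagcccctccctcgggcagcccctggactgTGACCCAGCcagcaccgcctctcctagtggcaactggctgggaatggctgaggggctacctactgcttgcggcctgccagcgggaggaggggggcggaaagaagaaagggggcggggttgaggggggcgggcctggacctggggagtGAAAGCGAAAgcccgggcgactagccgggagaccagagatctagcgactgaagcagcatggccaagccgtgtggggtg
POMP: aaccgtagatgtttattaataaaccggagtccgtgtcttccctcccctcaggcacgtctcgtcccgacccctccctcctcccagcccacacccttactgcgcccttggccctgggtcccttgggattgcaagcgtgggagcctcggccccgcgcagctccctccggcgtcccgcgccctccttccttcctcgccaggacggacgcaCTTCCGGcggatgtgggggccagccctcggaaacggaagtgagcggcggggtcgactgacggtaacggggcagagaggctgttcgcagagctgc
PSMG1: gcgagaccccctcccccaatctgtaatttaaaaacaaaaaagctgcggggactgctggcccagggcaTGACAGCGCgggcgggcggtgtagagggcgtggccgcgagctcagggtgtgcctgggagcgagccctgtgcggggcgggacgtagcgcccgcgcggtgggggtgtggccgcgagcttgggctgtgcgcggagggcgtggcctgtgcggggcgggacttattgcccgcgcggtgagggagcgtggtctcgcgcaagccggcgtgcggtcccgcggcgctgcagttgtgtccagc
PSMG4: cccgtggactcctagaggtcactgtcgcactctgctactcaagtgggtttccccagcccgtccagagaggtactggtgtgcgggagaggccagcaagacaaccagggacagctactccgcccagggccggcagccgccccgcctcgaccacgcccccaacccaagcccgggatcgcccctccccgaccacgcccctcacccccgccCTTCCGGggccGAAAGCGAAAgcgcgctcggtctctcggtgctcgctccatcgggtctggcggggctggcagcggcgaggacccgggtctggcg

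Motifs were searched on both strands in the promoters of 41 tested members and of 35116 RefSeq entries. The RefSeq entries were not limited to tested genes or reduced to a single promoter per gene, so the shares are not matched for expression. The E-box CACGTG, a site that MYC with MAX can bind, was in 3 of the 41 (7.32%: PSMB3, PSMD9 and PSME3), beside 7.26% of all promoters. The antioxidant response element TGACNNNGC, known from proteasome genes as a site for NFE2L1 with small MAF proteins, was in 13 (31.7%), beside 13.3%. The interferon-stimulated response element, searched as GAAA, any 2 bases and GAAA again, was in 6 (14.6%), beside 3.57%. The ETS core CCGGAAG was in 13 (31.7%), beside 10.3%, and the CCAAT box, which is not capitalised above, was in 18 (43.9%), beside 34.6%. PSME2 and PSMG4 carried the same letters GAAAGCGAAA just before the start, from -28 to -19 and from -33 to -24 with the start base as 0, and moved in opposite directions. POMP and PSMG4 likewise shared an ETS core from -44 to -38 and moved in opposite directions. PSMB9 held an antioxidant response element on the other strand from -148 to -140, PSME2 one from -175 to -167 and PSMG1 one from -183 to -175, again with both directions represented. A match is a description of letters, not evidence of binding, and a window without a match says only that these letters are not in it.

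The 14 tested subunits of the standard 20S core changed little with MYC in normalized counts. At medium MYC, 4 were higher and 4 lower in control cultures, with a median change of 0.03 and a range from -0.39 to 0.18. Of all 13765 tested genes, 5355 were higher and 5130 lower, and the calls of each class below are to be set beside these. The called alpha and beta subunits leaned different ways, which was not tested. Of the 7 alpha subunits, which form the outer rings, 4 were higher (PSMA1, PSMA4, PSMA5 and PSMA6, by 0.09 to 0.18) and PSMA3 fell by 0.14 (SE 0.04, adjusted p = 0.00511). Of the 7 standard beta subunits, none was higher and 3 were lower, among them 2 of the 3 catalytic ones. PSMB3 was not called at 0.11 (SE 0.05, adjusted p = 0.055) but was called higher in 6 alternatives, among them equal library totals (adjusted p = 0.0304) and the fits without high MYC control replicate 1 (0.0417), medium MYC control replicate 1 (0.00713) or medium MYC control replicate 2 (0.0387). PSMB5, the chymotrypsin-like subunit, was at 752, 717, 693 and 716 normalized counts in the high MYC control libraries and at 549.7, 572, 595 and 530.1 in the medium MYC controls, without overlap. Its change was -0.36 (SE 0.05, adjusted p = 4.4e-07). PSMB7, the trypsin-like subunit, was at 1411, 1423, 1451 and 1447 and then at 1095, 1094, 1057 and 1117, a change of -0.39 (SE 0.03, adjusted p = 2.17e-10). PSMB6, the caspase-like subunit, was at 489.6, 476, 479 and 481 and at 504, 527, 475 and 439, and these groups overlapped. The interval of the PSMB6 difference ran from -0.10 to 0.12 (adjusted p = 0.845), so a change as large as those of PSMB5 and PSMB7 lies outside it. PSMB2, a structural neighbour without catalytic activity, fell by 0.29 (SE 0.04, adjusted p = 2.8e-06). The alpha subunit PSMA7 was at 1192, 1352, 1401 and 1374 in high MYC controls and at 1329, 1339.8, 1276 and 1260.5 in medium MYC controls, overlapping, and was not called. The PSMA1 call was lost without high MYC control replicate 1 (adjusted p = 0.0991) and without medium MYC control replicate 4 (adjusted p = 0.0612).

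The immunoproteasome subunits did not move as a set. PSMB9 (ENSG00000240065, chr6:32844136-32859585, plus strand on GRCh38) was at 244, 298, 232 and 260.4 normalized counts in the high MYC controls and at 596, 628, 655 and 644 in the medium MYC controls. Every medium MYC library was above every high MYC library, and the 2.44-fold rise was the largest of any proteasome gene, 1.29 (SE 0.07, adjusted p = 4.97e-13) on the log2 scale. PSMB10 (ENSG00000205220, chr16:67934502-67937087, minus strand) was at 527, 530.1, 493 and 472 and at 607, 634, 725 and 621, also without overlap, a smaller rise of 0.35 (SE 0.05, adjusted p = 5.12e-06). PSMB8 (ENSG00000204264, chr6:32840717-32844703, minus strand) was at 812, 852, 883 and 833 and at 786, 816, 805 and 781, and its groups overlapped. Its change was not called at -0.08 (SE 0.04, adjusted p = 0.0829), with an interval from -0.17 to 0.01 that leaves out a rise like that of PSMB10. PSMB8 was called lower with edgeR (adjusted p = 0.0486) and in limma without high MYC control replicate 1 (adjusted p = 0.0493). PSMB8 and PSMB9 lie beside each other in the MHC class II region of chromosome 6, and 25.3% of the PSMB8 exon bases overlap exons of PSMB9 or PSMB8-AS1 on the other strand. Whether counting used the strand is not given in the sources used here, so reads from these bases cannot be assigned with certainty. The same holds for PSMB10, of which 34.8% of exon bases lie in the exons of AC040162.1 on the same strand.

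Set against the standard subunits that they replace, the inducible subunits gained at medium MYC in every pair, and in 1 pair both genes were called. The log2 ratio of PSMB9 to PSMB6 normalized counts was -0.90 ± 0.17 at high and 0.38 ± 0.16 at medium MYC in controls (SD, n = 4). For PSMB10 to PSMB7 it was -1.50 ± 0.10 and -0.76 ± 0.14, where PSMB10 rose and PSMB7 fell. For PSMB8 to PSMB5 it was 0.23 ± 0.10 and 0.51 ± 0.05, where PSMB5 fell and PSMB8 was not called. These ratios share one set of libraries and are not corrected for transcript length, so only their shifts between groups can be read. The 3 inducible genes together took 0.0156% ± 0.0004 of reads in high MYC controls and 0.0201% ± 0.0005 in medium MYC controls (SD, n = 4). The 14 standard core genes took 0.150% ± 0.003 and 0.146% ± 0.003, ranges that overlap.

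**Figure D2:**
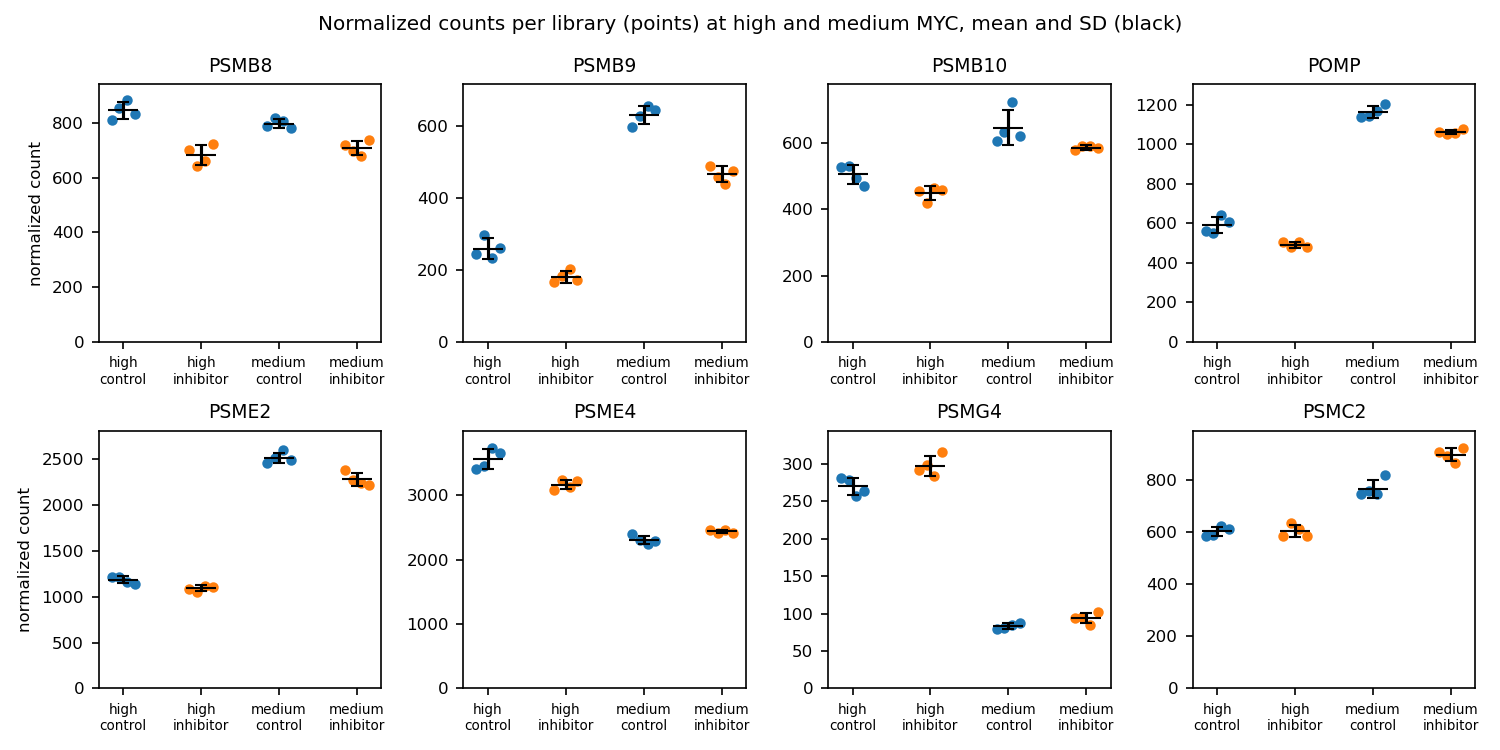
Normalized counts (y axis) of 8 proteasome genes in each of the 16 libraries (points, blue for control and orange for inhibitor), with mean and SD in black, by group (x axis). PSMB9, POMP and PSME2 are higher at medium MYC in every library, PSMG4 and PSME4 are lower in every library, and the PSMB8 controls overlap.

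In the 19S cap, more of the subunits taken by name were higher than lower at medium MYC. ADRM1 and SEM1, which the name rule does not cover, were kept with the proteasome-associated genes below. Of the 17 tested subunits taken by name, 9 were higher and 4 lower in control cultures, with a median of 0.13 and a range from -0.35 to 0.48. These 13 calls are a share near the background of 76.2% given above. Among the 6 ATPases, which form the ring that unfolds substrates, 4 were higher and none lower. PSMC3 had the largest change of these, from 712, 754, 767 and 725 normalized counts to 1051, 1008, 1083 and 975, 0.48 (SE 0.04, adjusted p = 7.8e-10). PSMC5 rose by 0.44 (SE 0.04, adjusted p = 4.38e-09). PSMC2 went from 585, 587, 624 and 610.2 to 746, 756, 744 and 817, 0.35 (SE 0.04, adjusted p = 1.72e-07). For PSMC2, PSMC3 and PSMC5 all medium MYC libraries were above all high MYC libraries. PSMC1 and PSMC4 were not called. PSMC1 was at 908, 969, 999.9 and 1022 and then at 948, 985, 1009.9 and 1022, overlapping; 75.8% of its exon bases overlap NRDE2 on the other strand, and 13 pseudogenes in the table add up to 12.5% of its level, so its count is uncertain.

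The 11 non-ATPase subunits of the cap taken by name were divided, with 5 higher and 4 lower. PSMD4, a receptor for ubiquitin chains, was at 747, 749, 732 and 714 and at 992, 970.0, 1011 and 958, a rise of 0.42 (SE 0.04, adjusted p = 1.03e-09) without overlap. PSMD2, a large scaffold subunit of the cap base, rose by 0.27 (SE 0.03, adjusted p = 1.22e-07), and its partner PSMD1 rose by 0.13 (SE 0.03, adjusted p = 0.00165). PSMD14, the deubiquitinase that strips chains from substrates, moved the other way by -0.35 (SE 0.06, adjusted p = 8.2e-06). PSMD7, which pairs with PSMD14 in the lid, and the lid subunit PSMD3 also fell, with changes of -0.21 (SE 0.05, adjusted p = 0.000444) and -0.20 (SE 0.04, adjusted p = 4.71e-05). PSMD12, another lid subunit, was at 807, 792, 862 and 939.9 and then at 838, 883, 783 and 872, overlapping, and was not called. The fourth lower subunit was PSMD8, at -0.11 (SE 0.05, adjusted p = 0.0276). This call was lost in 6 of 28 alternatives, among them the fits without high MYC control replicate 1 (adjusted p = 0.127), high MYC control replicate 2 (0.0506) and medium MYC control replicate 1 (0.124).

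Among the activators that can take the place of the cap, all 4 were called, in opposite directions by type. The background was 76.2% of all tested genes called, and 81.9% of those with a mean of at least 100. PSME1 and PSME2, which form PA28αβ, lie beside each other on chromosome 14 and both rose. PSME2 (ENSG00000100911, chr14:24143362-24147570, minus strand) was at 1214, 1218, 1164 and 1141 normalized counts in high MYC controls and at 2458, 2509, 2598 and 2495 in medium MYC controls, a 2.12-fold rise, 1.09 (SE 0.03, adjusted p = 1.28e-17). PSME1 (ENSG00000092010, chr14:24136158-24138967, plus strand) went from 1114, 1172, 1071 and 1117 to 1850.4, 1822, 1864 and 1867, 0.73 (SE 0.03, adjusted p = 1.19e-14). PSME2 rose more than its partner, and the log2 ratio of PSME1 to PSME2 went from -0.08 ± 0.05 to -0.44 ± 0.03 (SD, n = 4). PSME3, the nuclear PA28γ, was lower, from 2265, 2306, 2301 and 2319 to 1785, 1845, 1948 and 1845, -0.31 (SE 0.03, adjusted p = 4.19e-08). PSME4, the large activator PA200, fell further, from 3409, 3456, 3735 and 3664 to 2392, 2311, 2243 and 2294, -0.63 (SE 0.03, adjusted p = 6.83e-14). PSMF1, a protein that inhibits the core in vitro, fell from 1127, 1006, 1051 and 1028 to 799, 814, 899 and 789, -0.35 (SE 0.05, adjusted p = 6.16e-07). None of these 5 genes overlapped between the MYC levels, beside 69.2% of all tested genes without overlap. The table also lists 6 pseudogenes of PSME2, whose summed level was 2.86% of that of the gene.

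The 5 chaperones of core assembly gave the largest changes of any class, with a median size of 0.98. PSMG1 and PSMG2 act as a pair on the alpha ring, as do PSMG3 and PSMG4, yet the members of the first pair parted. PSMG1 (ENSG00000183527, chr21:39174769-39183851, minus strand) was at 652, 666, 669 and 633 normalized counts in high MYC controls and at 251, 247, 227 and 255 in medium MYC controls, 2.67-fold lower, -1.41 (SE 0.06, adjusted p = 4.91e-15). PSMG2 was at 353, 367, 412 and 364 and at 379.7, 359.6, 367 and 405, and its groups overlapped. The interval of the PSMG2 difference, from -0.10 to 0.13 (adjusted p = 0.823), leaves out a fall like that of PSMG1. PSMG4 (ENSG00000180822, chr6:3231403-3303373, plus strand) fell most of all proteasome genes, from 282, 279, 257 and 264 to 79.3, 81.3, 84.9 and 87.8, 3.22-fold, -1.69 (SE 0.07, adjusted p = 5.84e-15). Exons of TUBB2B and SLC22A23 on the other strand overlap 15% of the PSMG4 exon bases. Its partner PSMG3 fell from 285, 294, 333 and 302 to 196, 177, 214 and 184, -0.65 (SE 0.08, adjusted p = 1.9e-07).

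POMP, which helps the beta ring form and the core mature, moved against PSMG1, PSMG3 and PSMG4. POMP (ENSG00000132963, chr13:28659104-28678925, plus strand) was at 562, 553, 643 and 604 normalized counts in high MYC controls and at 1139, 1141, 1167 and 1203 in medium MYC controls, 0.98 (SE 0.04, adjusted p = 7.68e-15). The lowest medium MYC library was above the highest at high MYC. The chaperones of the 19S base were split: PSMD5 rose from 675, 704, 679 and 634 to 989, 939, 890.0 and 911, 0.47 (SE 0.05, adjusted p = 4.64e-09). PSMD9 fell by 0.16 (SE 0.05, adjusted p = 0.0111). PSMD10, also known as gankyrin, was at 228, 250.4, 252 and 227 and then at 294, 263, 249 and 236, overlapping, and was not called.

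The same contrast in inhibitor-treated cultures, which share no library with the controls, gave much the same picture. There 35 of 47 members were called, 22 higher and 13 lower at medium MYC, beside a background of 77.5% (82.7% for a mean of at least 100), and the groups did not overlap for 32, beside 72.6%. Both contrasts called 31 members in the same direction, 18 higher and 13 lower, which is 91.2% of the 34 and 88.6% of the 35 (90.5% and 88.9% among all tested genes). The large movers had similar sizes: PSMB9 changed by 1.36 (SE 0.07, adjusted p = 1.76e-13), PSME2 by 1.06, POMP by 1.11, PSMG1 by -1.37 and PSMG4 by -1.65. All 6 ATPases of the cap were now higher, with PSMC2 at 0.57 (SE 0.04, adjusted p = 4.97e-11) and PSMC4 at 0.22 (SE 0.05, adjusted p = 0.00053). PSMB8 was again not called, at 0.05 (SE 0.04, adjusted p = 0.252). PSMA2, PSMB4, PSMC1 and PSMC4 were called here and not in the controls. The PSMB4 call (adjusted p = 0.0476) was lost in 18 of 28 alternatives, and that of PSMA2 (adjusted p = 0.0368) in 9.

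Corrected for transcript length, PSMB9 and POMP moved up in the order of levels, and PSMG1 and PSMG4 moved down. In high MYC controls, levels per kb ran from 175 (PSMD9) to 1613 ± 49.4 normalized counts (PSMA4, SD, n = 4), followed by PSMD3 at 1563, PSMB7 at 1462 and PSME2 at 1454. In medium MYC controls PSME2 led with 3088, PSME1 followed with 1815 and PSMA4 was the third with 1772. Among the 47 members, PSMB9 went from rank 41 (328 per kb) to rank 15 (801) and POMP from rank 30 (428) to rank 13 (843). PSMG1 went from rank 31 (428) to rank 45 (160) and PSMG4 from rank 39 (349) to rank 47 (108), the lowest of all. Other members of these classes kept closer to their place: PSMB10 went from rank 33 to 30, PSMB8 from 14 to 18 and PSMG3 from 43 to 44, and PSMG2 stayed at 37. Alpha subunits had a median of 1170 per kb at high MYC and the 19S ATPases one of 383. The lengths are medians over annotated coding transcripts, so the order among neighbours depends on that choice.

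**Figure D3:**
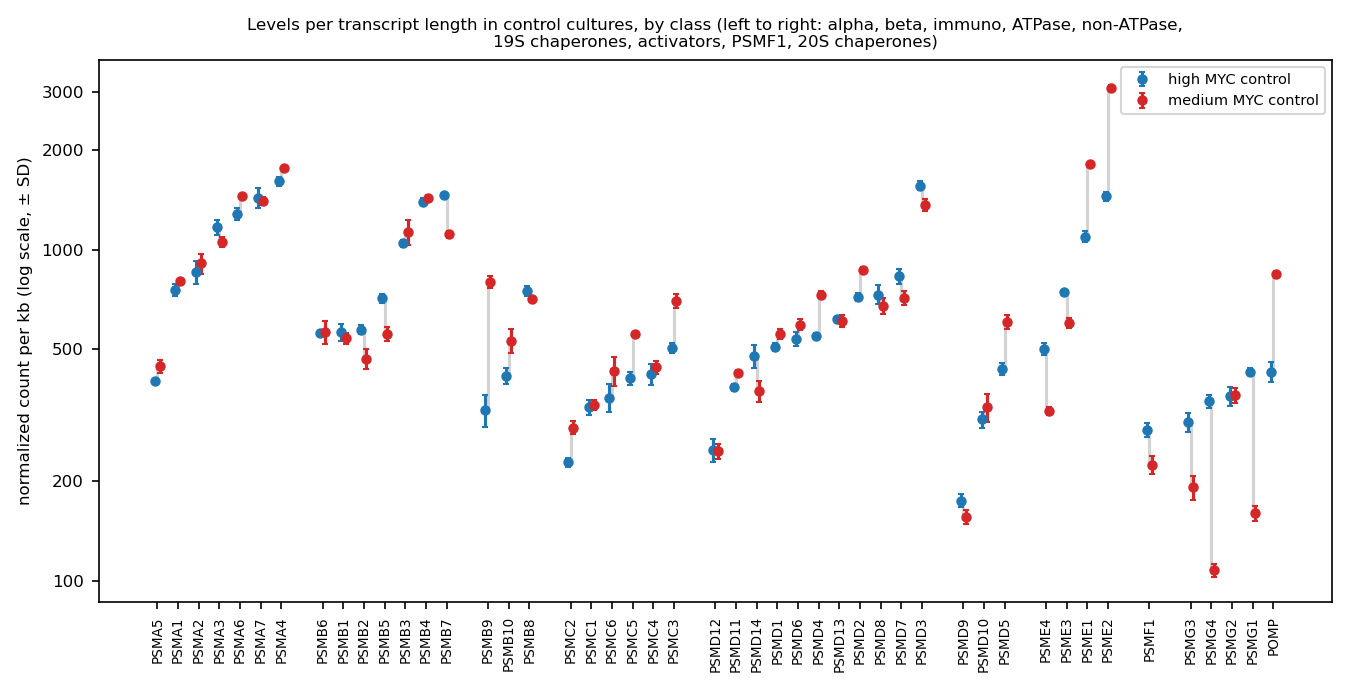
Normalized counts per kb of transcript (y axis, log scale; points with SD, n = 4) of the 47 tested proteasome genes in high MYC controls (blue) and medium MYC controls (red), by class (x axis). PSME2, at 1454 and 3088 per kb, has the highest level at medium MYC, and PSMG4, at 349 and 108, the lowest.

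With NMT inhibition at high MYC, the 3 inducible subunits, POMP and the activators PSME2 and PSME4 fell, by at most 1.43-fold. In all, 8 of 47 members were called, 1 higher and 7 lower, beside a background of 26.8% in either direction (31.4% for a mean of at least 100) and of 16.3% for lower calls. Their median change was -0.03, beside -0.02 for all tested genes, and the groups did not overlap for 12, beside 26.7%. None of the 14 standard core subunits was called (limma), while 3 had an unadjusted p under 0.05. edgeR called 2 members higher and 7 lower, and DESeq2 1 higher and 6 lower. All 3 inducible subunits were lower. PSMB9 was at 166, 182, 203 and 173 normalized counts with the inhibitor, below each of the high MYC controls given above, 1.42-fold lower and -0.51 (SE 0.07, adjusted p = 1.71e-05). PSMB8 was at 700.1, 642, 661 and 723, also below every control, -0.31 (SE 0.04, adjusted p = 1.15e-05). PSMB10 was at 456, 419, 463 and 459, below every control by a smaller margin, -0.17 (SE 0.05, adjusted p = 0.0255). The PSMB10 call was lost with DESeq2 (adjusted p = 0.0591), under quantile normalization (0.0984) and without high MYC control replicate 1 (0.0752), high MYC control replicate 2 (0.0833) or high MYC inhibitor replicate 2 (0.0954).

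Outside the catalytic subunits, the lower genes at high MYC were POMP, PSME4, PSME2 and PSMD1. POMP was at 504, 479, 503 and 478 with the inhibitor, below every control, -0.26 (SE 0.04, adjusted p = 0.000102). PSME4 was at 3082, 3239.9, 3128 and 3217, likewise below every control, -0.17 (SE 0.03, adjusted p = 0.000328). PSME2, at 1083, 1049, 1121 and 1111, fell by 0.12 (SE 0.03, adjusted p = 0.0116), and this call was lost under quantile normalization (adjusted p = 0.0832). PSMD1 fell by 0.11 (SE 0.03, adjusted p = 0.0171), a call lost under quantile normalization and without high MYC control replicate 3 or high MYC inhibitor replicate 1 or 4 (adjusted p from 0.05 to 0.137). The one higher gene was the lid subunit PSMD6, at 0.16 (SE 0.05, adjusted p = 0.0131), with an adjusted p of 0.0501 without high MYC control replicate 1. The PA28 partner PSME1 was at 1048, 1117, 1082 and 1115, overlapping the controls, and was not called. Under quantile normalization the split was 5 higher and 4 lower in place of 1 and 7.

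At medium MYC, PSMB9, PSMB8, PSME2 and POMP fell with the inhibitor as well, and subunits of the cap and core were among those that rose. Of 47 members 10 were called, 5 higher and 5 lower, beside a background of 26.3% (33.0% for a mean of at least 100). Their median change was 0.03, beside -0.01 for all tested genes, and the groups did not overlap for 13, beside 27.9%. PSMB9 was at 489, 459, 439 and 475 normalized counts, below every medium MYC control, 1.35-fold lower and -0.44 (SE 0.07, adjusted p = 9.29e-05). PSMB8 was at 718, 697, 678 and 738, below every control, -0.17 (SE 0.04, adjusted p = 0.00443). PSMB10 was at 578, 592, 590.1 and 586, below every control too, but was not called at -0.14 (SE 0.05, adjusted p = 0.0697). It was called without medium MYC control replicate 1 (adjusted p = 0.042). PSME2, at 2385, 2277, 2243 and 2215, fell by 0.14 (SE 0.03, adjusted p = 0.00304). POMP, at 1061, 1052, 1058 and 1076, fell by 0.13 (SE 0.04, adjusted p = 0.0312) and lay below every control. The POMP call was lost in 8 of 28 alternatives with adjusted p up to 0.11, among them those without medium MYC control replicate 3 or 4 and without medium MYC inhibitor replicate 1, 2 or 3. PSMD8 fell by 0.13 (SE 0.05, adjusted p = 0.0345), a call lost in 10 of 28, among them those without medium MYC control replicate 2, 3 or 4 and medium MYC inhibitor replicate 3 or 4, with adjusted p up to 0.148.

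The 5 genes that rose at medium MYC came from the cap, the core and its assembly. PSMC2 went to 908, 890.1, 865 and 923 with the inhibitor, above every control, 0.23 (SE 0.04, adjusted p = 0.000293). PSMC4, another ATPase of the ring, rose by 0.18 (SE 0.05, adjusted p = 0.011). The chaperone PSMG2 was at 447, 459.9, 418 and 422, above every control, 0.21 (SE 0.06, adjusted p = 0.00746). The alpha subunit PSMA6 was at 1409, 1413, 1490.4 and 1352, above every control, 0.12 (SE 0.04, adjusted p = 0.0211), and was not called without medium MYC inhibitor replicate 3 (adjusted p = 0.0853). The beta subunit PSMB4 rose by 0.10 (SE 0.03, adjusted p = 0.0327), a call lost in 8 of 28 alternatives, among them those without medium MYC control replicate 1 or 4 and medium MYC inhibitor replicate 2 or 3. Scaling altered this split: with equal library totals 11 members were higher and 3 lower, and with quantile normalization 10 and 3.

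Both MYC levels called 4 members in common, all lower: PSMB8, PSMB9, PSME2 and POMP. These are 50% of the 8 called at high MYC and 40% of the 10 called at medium MYC, beside 49.0% and 50% for all tested genes. The libraries behind these responses are separate. As a share of reads, the 3 inducible subunits fell from 0.0156% ± 0.0004 to 0.0128% ± 0.0004 at high MYC and from 0.0201% ± 0.0005 to 0.0174% ± 0.0004 at medium MYC (SD, n = 4), without overlap at either level. Because the MYC contrast and each inhibitor response use the same control libraries, their values are given side by side only. PSMB9 changed by 1.29 at medium against high MYC and by -0.51 and -0.44 with the inhibitor at high and medium MYC. The corresponding values were 0.98, -0.26 and -0.13 for POMP and 1.09, -0.12 and -0.14 for PSME2. The summed B cell markers moved the same way, as given above.

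The response to the inhibitor itself differed between MYC levels for 3 of 47 members, beside a background of 8.63% (11.1% for a mean of at least 100), and 9 had an unadjusted p under 0.05. All 3 differences were negative, beside 5.33% of all tested genes with a negative call. PSME4 fell at high MYC and was at 2458, 2411, 2466 and 2416 with the inhibitor at medium MYC, where it was above every control but not called, 0.08 (SE 0.03, adjusted p = 0.0758). The difference, high minus medium, was -0.25 (SE 0.04, adjusted p = 0.00079) with an interval from -0.34 to -0.16. PSMC2 was called higher at medium MYC, while its high MYC libraries lay at 585, 634, 611 and 583 with the inhibitor beside 585, 587, 624 and 610.2 without, and the difference was -0.22 (SE 0.06, adjusted p = 0.0196). PSMA6 was at 1083, 1158, 1179.8 and 1185 without and 1104, 1145, 1064 and 1122 with the inhibitor at high MYC, overlapping, and the difference was -0.17 (SE 0.05, adjusted p = 0.0435). The PSMA6 difference was lost in 18 of 27 alternatives with adjusted p up to 0.0991, 13 of them fits that each left out 1 library, and that of PSMC2 was lost with DESeq2 (adjusted p = 0.0525). For the inducible subunits no difference was called: it was -0.14 (SE 0.06, adjusted p = 0.184) for PSMB8, with an interval from -0.26 to -0.01. For PSMB9 the interval was -0.29 to 0.14 and for PSMB10 -0.19 to 0.13.

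**Figure D4:**
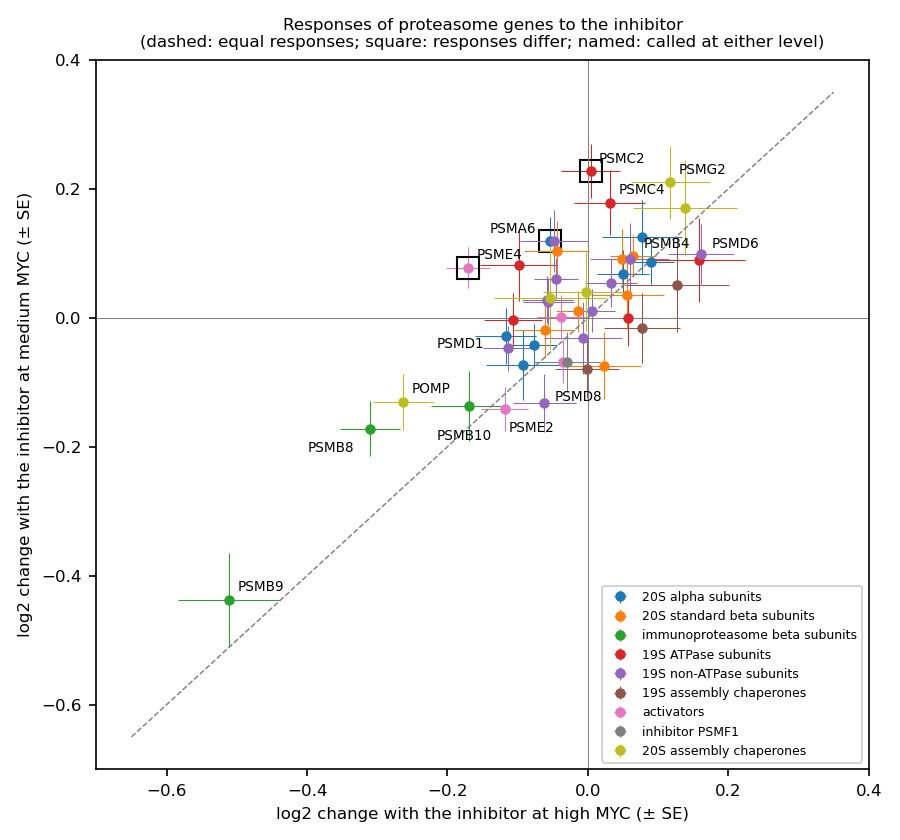
Log2 change of the 47 tested proteasome genes with the inhibitor at high MYC (x axis) and at medium MYC (y axis), with SE, coloured by class; the dashed line marks equal responses, squares the 3 genes whose responses differed, and names the genes called at either level. PSMB9 lies lowest on both axes, at -0.51 and -0.44, and PSMC2 highest on the y axis, at 0.23.

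Genes that work with the proteasome or control its genes were looked at from fixed lists. Of 10 proteasome-associated genes, 1 was higher and 7 lower at medium MYC in controls, with a median size of 0.36, beside 0.50 for all tested genes. Here and in the lists that follow, calls for MYC in controls are to be set against the 76.2% of all tested genes that were called, 5355 of 13765 higher and 5130 lower. The deubiquitinases of the cap, UCHL5 and USP14, fell, with changes of -1.10 (SE 0.07, adjusted p = 1.55e-12) and -0.54 (SE 0.04, adjusted p = 3.92e-11), and ECPAS, which holds cap and core together, fell by 0.49 (SE 0.03, adjusted p = 1.25e-13). AKIRIN2, which brings proteasomes into the nucleus, rose by 0.96 (SE 0.08, adjusted p = 2.26e-10). Of the 9 genes listed for the control of proteasome genes, 3 were higher and 3 lower. NFE2L1, the factor that induces proteasome genes when the particle is impaired, rose by 0.60 (SE 0.04, adjusted p = 3.09e-12), while DDI2, the protease that activates it, fell by 1.04 (SE 0.04, adjusted p = 7.47e-16). The small MAF partners of NFE2L1 parted, with MAFF at 3.44 and MAFK at -1.59. MAFF was near the floor in high MYC controls, at 3.37 to 6.71 normalized counts, beside 51.1 to 78.0 in medium MYC controls. MAFG overlapped between these groups, at 327 to 349 and 301 to 382. The inhibitor responses of NFE2L1 and DDI2 differed between MYC levels, by -0.27 (SE 0.05, adjusted p = 0.00179) and 0.21 (SE 0.06, adjusted p = 0.02). NFE2L1 was higher with the inhibitor at medium MYC by 0.17 (SE 0.04, adjusted p = 0.00139).

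Peptide loading genes act after the immunoproteasome. Of the 9 in the class I list, 8 were higher and none lower at medium MYC, with a median change of 0.58. TAP1, the peptide transporter, rose by 1.13 (SE 0.03, adjusted p = 1.33e-17), TAPBP, which bridges it to MHC class I, by 0.93 (SE 0.04, adjusted p = 2.15e-15), and B2M, the class I light chain, by 0.54 (SE 0.03, adjusted p = 1.47e-14). IRF1, a factor that induces immunoproteasome genes, rose by 0.93 (SE 0.03, adjusted p = 7.51e-17). IRF1 was also the one higher gene of the list with the inhibitor at high MYC, where the 3 inducible subunits fell: it went from 968 ± 28.7 to 1119.9 ± 20.5 normalized counts (SD, n = 4) without overlap, 0.21 (SE 0.03, adjusted p = 3.95e-05). At medium MYC it fell by 0.10 (SE 0.03, adjusted p = 0.0311), and the responses differed by 0.31 (SE 0.05, adjusted p = 0.000101). With the inhibitor, 5 of the 9 were lower and 1 higher at high MYC, and 6 lower and 1 higher at medium MYC, beside 26.8% and 26.3% of all tested genes called in either direction. NLRC5, an activator of class I genes, was not called for MYC at 0.01 (SE 0.05, adjusted p = 0.791) but fell with the inhibitor at both levels, with changes of -0.20 and -0.30. Of the 10 COP9 signalosome genes, whose complex resembles the lid of the cap, 2 were higher and 5 lower at medium MYC in controls.

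The genes that supply ubiquitin and carry substrates were divided. Among 6 ubiquitin and E1 enzyme genes, 4 were higher and 2 lower at medium MYC. The stress-inducible polyubiquitin gene UBB rose by 0.54 (SE 0.03, adjusted p = 6.32e-13). RPS27A, in which ubiquitin is fused to a ribosomal protein, moved the other way by -0.48 (SE 0.03, adjusted p = 2.48e-12). Of the 6 shuttle factors, 2 were higher and 4 lower. SQSTM1, the autophagy receptor p62, rose by 0.51 (SE 0.05, adjusted p = 3.05e-09), and rose again with the inhibitor at medium MYC by 0.47 (SE 0.05, adjusted p = 1.56e-07). At high MYC its response was 0.03 (SE 0.05, adjusted p = 0.719), and the responses differed by -0.44 (SE 0.07, adjusted p = 0.000137).

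Several proteasome genes start beside a neighbour that runs the other way. By RefSeq starts within 1000 bases upstream or 200 downstream, 7 of the members with a promoter had such a neighbour, and both genes were tested in 6 pairs. PSMB9 and TAP1 start 488 bases apart and changed by 1.29 and 1.13 at medium against high MYC in controls, and by -0.51 and -0.17 with the inhibitor at high MYC. PSME2 and RNF31, a subunit of the linear ubiquitin ligase, start 265 bases apart and changed by 1.09 and 0.64. PSME4 and ACYP2 start 120 bases apart and changed by -0.63 and -0.50. PSMA2 and MRPL32, a mitochondrial ribosomal protein gene, start 202 bases apart and did not move together: MRPL32 fell by 0.76 (adjusted p = 4.9e-09), while PSMA2 was not called. In 5 of the 6 pairs the MYC changes had the same sign, which includes values that were not called. Those were PSMD13 (-0.02, with SIRT3 at -0.35) and PSMD10 (0.12, with ATG4A at 0.55). How often such neighbours share a sign among all genes was not counted, so the count of pairs has no background.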

How the data were processed

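Bulk RNA-seq libraries of P493-6 cells, 16 in 4 groups of 4 by the labels, were analysed from one deposited table of 58051 Ensembl identifiers. Its values are an expression signal that the authors deposited as normalized counts. The submitters' processing notes name STAR 2.5.2a, RSEM 1.2.31, DESeq2 1.16.1 and GRCh38, without their roles or order; the annotation and the use of strand are not given in the sources used here. In every library 100.0% of values were whole multiples of one step within 0.001 read, so reads were recovered, and the steps equalled median-of-ratios size factors over these libraries. Depth was 8755296 to 13858534 reads per library. Replicate libraries of a group varied by more than counting error, with a chi-square per degree of freedom of 1.68 to 9.95 between pairs. PCR copies cannot be told from separate molecules.

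The test was limma 3.58.1 (R 4.3.3) on log2 of the value plus 1, so folds of low genes are understated. A mean of at least 10 left 13765 genes, in one fit of 4 group means, a mean trend, and two-sided p-values with Benjamini-Hochberg adjustment over all genes. Genes with an adjusted p under 0.05 are called. Quantile and equal-total scalings, pseudocounts, filters, a replicate block, edgeR 4.0.16 and DESeq2 1.42.0 on recovered reads, and leaving out each library were tried. edgeR called 10556 genes for MYC in controls, 3703 and 3858 for the inhibitor at high and medium MYC, and 1219 for the difference in response, where limma called 10485, 3689, 3618 and 1188. In simulated data for 13765 genes, 68, 66 and 66 genes were given changes of 0.3, 0.6 and 1 (log2). Of these, limma recovered 45.6%, 80.3% and 93.9% for the inhibitor at high MYC, with 9 unchanged genes called. The shares were 11.8%, 62.1% and 84.8% in the response difference, where 3 unchanged genes passed. With so few changed genes, a call needed a smaller unadjusted p than in the data, where 3689 and 1188 genes were called. These shares therefore do not give the power of the tests in the data.

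The members, gene lists and naming rule were chosen with earlier results of these data known. Values per library are given for the inducible subunits and their standard counterparts, POMP, PSME1, PSME2, the members with the largest and smallest MYC change in each class, and those whose responses differed; PSMG1, PSMG3, PSMC5 and the genes of other lists were singled out with their values known. Symbols came from a gene name table that matched 56948 identifiers, positions and lengths from GENCODE 29 on GRCh38 by identifier, and promoters from RefSeq for 43 of 49 members.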

Additional observations from a re-analysis of the deposited data

Results flagged for a closer look

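In 6 of 188 groups of 4 libraries one library stood far from the other three (Dixon's test at the 95% level); chance gives about 1 in 20. High MYC control replicate 1 was at 1068 normalized counts for PSMA1. High MYC inhibitor replicate 3 was at 1039 for PSMA2, and high MYC inhibitor replicate 2 at 419 for PSMB10. Medium MYC control replicate 4 was at 817 for PSMC2. Medium MYC inhibitor replicate 4 was at 1492 for PSMB2, and medium MYC inhibitor replicate 3 at 744 for PSMC4. Each is a different library.

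Inhibitor responses were unequal at the 2 MYC levels for PSME4 (-0.25), PSMC2 (-0.22) and PSMA6 (-0.17), each as log2 change at high minus medium MYC, called by limma with the interaction of the 4 groups.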

How the results depend on the processing

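No called value changed sign under any of the 28 alternatives (27 for the difference in response). Members called in every alternative numbered 32 of 34 for MYC in controls, 32 of 35 for MYC in inhibitor-treated cultures, 4 of 8 and 6 of 10 for the inhibitor at high and medium MYC, and 1 of 3 for the difference. In the same order, leaving out 1 library at a time gave 33 to 35, 32 to 35, 7 to 11, 7 to 11 and 2 to 4 called members, and the other alternatives 32 to 35, 33 to 35, 7 to 9, 7 to 14 and 1 to 3. The count of 1 came from DESeq2, which called PSME4 alone; the cause was not tested. Same-numbered libraries did not deviate together (mean correlation of -0.07 between high MYC control and inhibitor), and a replicate block gave 34, 33, 8, 8 and 2 called members. Changes near 0 that were not called reversed in 11 instances. For PSMB6 in inhibitor-treated cultures the MYC change was 0.00299 with equal library totals, 0.00254 with quantile normalization, and -0.0444 to 0.00962 when 1 library was left out. In controls it was -0.0283 to 0.0597 when 1 library was left out. For PSMC2 with the inhibitor at high MYC it was -0.0205 to 0.0213 when 1 library was left out. Of the values for named genes, 1515 kept direction and side of the threshold, 34 lost the call and 5 gained one. The scalings moved the median of all genes by less than 0.1. For a size of 0.3, the recovery given above was 45.6% for the inhibitor at high MYC and 11.8% for the difference. Both values refer to simulated data in which 68 of 13765 genes had a change of that size. Recovery for the 47 tested proteasome genes alone was not tested. Among them PSME4 was called with the inhibitor at high MYC at -0.17.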

Other observations

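Summed over the 49 proteasome genes, reads were 0.466% ± 0.008 of all reads in high MYC controls, 0.459% ± 0.001 in high MYC inhibitor libraries, 0.480% ± 0.006 in medium MYC controls and 0.492% ± 0.004 in medium MYC inhibitor libraries (SD, n = 4). The cap genes took 0.178%, 0.178%, 0.188% and 0.197% in the same order. The ranges of the medium MYC control and inhibitor libraries did not overlap for either sum. PSMC3IP, a partner in meiotic recombination, and PSME3IP1, which binds PSME3, were both higher at medium MYC in controls, by 0.42 (SE 0.09, adjusted p = 0.000299) and 0.10 (SE 0.04, adjusted p = 0.0494).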
